A study of Rattus norvegicus with 15 samples.

Results

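The quantity described here is how far the effect of early calorie restriction on the rat liver transcriptome differed between adulthood and weaning. For each gene it is a difference of differences: restricted minus control at day 450, less restricted minus control at day 21. The rule took 12 of the 15 arrays of the series, in 4 groups of 3, and all 14506 genes with 1 gene symbol were tested. The livers came from male Sprague-Dawley rats, 1 array per rat. Control rats at day 21 and at day 450 were born to mothers fed normally through gestation and lactation. IPCR rats (intrauterine and postnatal calorie restriction) at both ages were born to mothers restricted by 50% in calories from embryonic day 11 to 21 and again from postnatal day 1 to 21. The day 21 livers were therefore taken as restriction ended, and the day 450 livers long afterwards. The remaining 3 arrays, from day 450 rats restricted only before birth (IUCR), entered the estimate of spread and no comparison. Each replicate came from separate littermates according to the series' design text. Neither the number of litters nor the hour of collection is stated in the labels, and p-values thus reflect only variation among these rats.

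The liver clock is a feedback loop. BMAL1, paired with CLOCK or NPAS2, switches on genes for the PER and CRY proteins, which block that pair, and for REV-ERB proteins, which hold Bmal1 down, while feeding resets the loop in liver. The same organ makes cholesterol and fatty acids in the fed state, breaks down amino acids in fasting, and answers growth hormone by releasing IGF1. These programs mature around weaning, so an effect of diet can disappear because the restricted liver, the control liver or both move with age.

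A gene was called where limma's p, adjusted by Benjamini and Hochberg over all 14506 genes, was below 0.05. Genes called at day 21 were sorted by whether the difference between the ages was called and whether the unadjusted 95% interval of the day 450 effect excluded 0. An effect was lost if the difference was called and the day 450 interval held 0. It was reversed or partly kept if the difference was called and that interval lay on the opposite or on the same side of 0. It was kept if the difference was not called and the interval lay on the same side, and otherwise unresolved. Genes with a called difference but no call at day 21 were termed late. All levels are log2 intensities, and each effect or difference is a difference of such levels. A positive difference means that IPCR minus control was higher at day 450 than at day 21.

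Features of the arrays moved with the groups. The interquartile range of levels on an array was 2.15 to 2.28 for IPCR and 2.26 to 2.30 for control at day 21, but 2.29 to 2.45 for IPCR and 2.19 to 2.31 for control at day 450. Bright genes accordingly had median effects of opposite sign, at -0.11 at day 21 and 0.11 at day 450 in the brightest of 4 level bins (quartiles of mean level). One array stood apart. IPCR day 450 replicate C had a mean level of 9.03 over 6 pancreatic acinar markers, against 6.83 to 7.09 on the other 11 arrays. Hepatocyte markers were bright on all 12, with mean levels of 12.91 to 13.59. Their part in the results was not tested except where a value is given below.

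**Figure D1:**
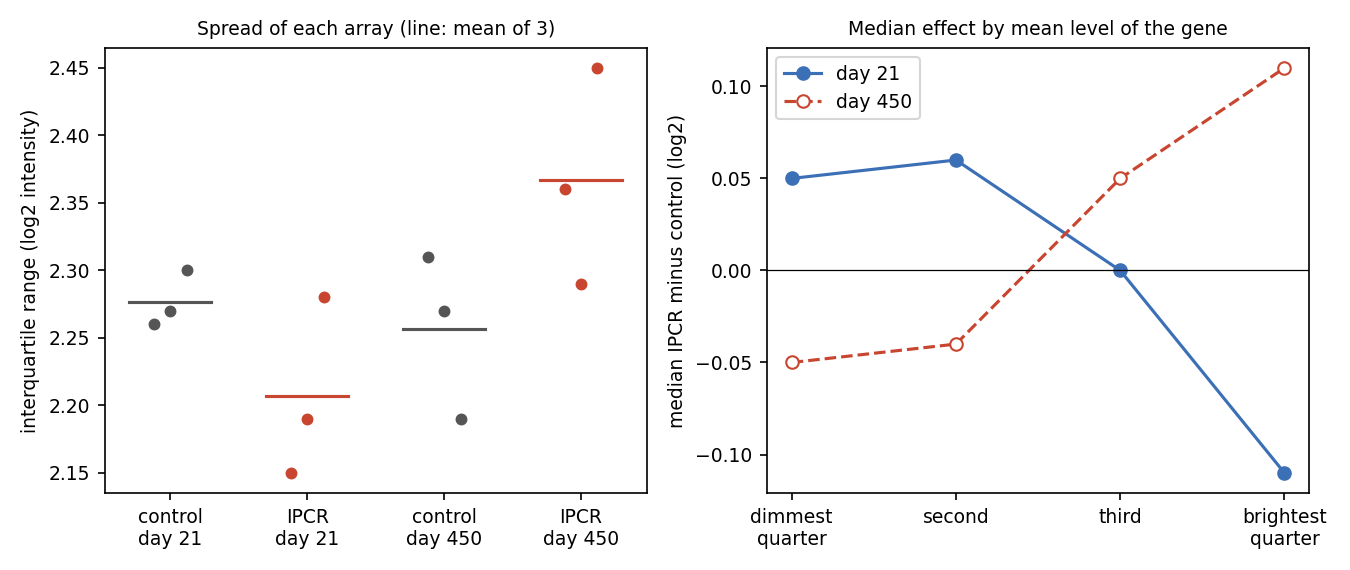
The left panel plots the interquartile range of log2 intensity of each of the 12 arrays by group, with a line at the mean of 3, and the right panel plots the median IPCR minus control (log2) of genes in 4 equal bins of mean level at day 21 (filled) and day 450 (open). IPCR arrays were narrower than control at day 21, with 1 overlapping array, and reached 2.45 at day 450, and the right-hand lines cross, from 0.05 and -0.05 in the dimmest bin to -0.11 and 0.11 in the brightest.

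Most of the weaning effect was not found in adult liver. The difference was called for 1189 genes (8.20% of those tested), 951 higher (6.56%) and 238 lower (1.64%). IPCR changed 1396 genes (9.62%) at day 21, of which 382 (2.63%) rose and 1014 (6.99%) fell, and 5 genes (0.0345%) at day 450, 3 higher (0.0207%) and 2 lower (0.0138%). At an unadjusted p below 0.05 the difference held 3545 genes (24.4%) and the day 450 effect 2143 (14.8%). Of the 1396 genes changed at weaning, 630 (45.1%) were lost, 205 (14.7%) reversed, 6 (0.430%) partly kept, 63 (4.51%) kept and 492 (35.2%) unresolved. Genes that had risen had a median effect of 0.40 at day 21 and 0.04 at day 450, and genes that had fallen went from -0.46 to 0.11. Over all genes the median was 0.02 at both ages. These counts depend on the arrays: without IPCR day 450 replicate C the difference was called for 642 genes and the day 450 effect for 0 (1174 at an unadjusted p below 0.05). Without IPCR day 21 replicate A or B the difference was called for 606 or 712 genes, and without control day 21 replicate A or B for 781 or 762. The day 450 effect was also called for 0 genes without IPCR day 450 replicate A (1795 unadjusted) or control day 450 replicate A (2340 unadjusted), and for 80 without IPCR day 450 replicate B. With each array's interquartile range as a covariate the difference was called for 112 genes, of which 106 were among the 1189.

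The largest weaning effects rarely persisted. Of 143 genes changed by more than 2-fold at day 21, 102 were lost, 13 reversed, 4 partly kept, 3 kept and 21 unresolved. The 39 that had risen had a median effect of 1.44 at day 21 and 0.12 at day 450, and the 104 that had fallen went from -1.28 to 0.17. Only 2 of the 143 retained the same sign and over 0.5 of the size.

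**Figure D2:**
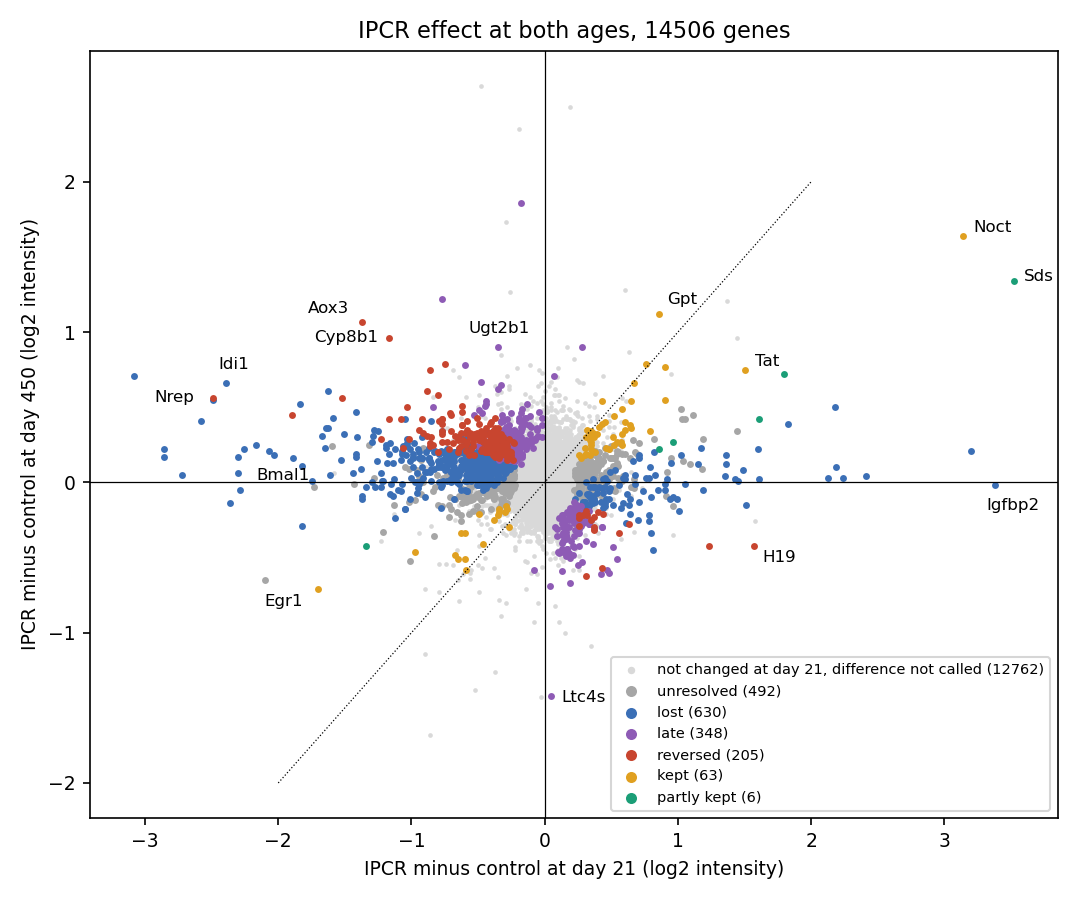
Each of 14506 genes is plotted by IPCR minus control at day 21 (x axis, log2 intensity) and at day 450 (y axis, log2 intensity), coloured by class, with the number of genes in brackets and a dotted line where both effects are equal. The cloud is wide along the x axis and flat along the y axis: Igfbp2 lies at 3.38 and -0.02, and Bmal1, just above its label, at -2.07 and 0.21. Noct, Gpt and Tat lie in the same quadrant at both ages.

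A gap can close from either side, and the age change within each diet separates these cases. Among the 630 lost genes the age change was larger in size in IPCR than in control for 535 (84.9%), beside 62.9% of all genes tested. Their median age change was 0.51 in IPCR and -0.04 in control. The share was 82.4% in reversed and 76.7% in late genes, so it was not particular to lost genes. These counts were made after the values had been seen, and the classes were chosen on the same arrays. Cholesterol enzymes followed the common pattern, with the restricted liver moving, while for Bmal1, Dbp, Tef and Akr1b7, and for the reversed gene Nrep, the control liver moved further.

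All 3 measured clock activators had a called, positive difference (median 1.63 in log2, beside -0.00 over all genes). Bmal1 was at 9.01, 8.96 and 8.92 in day 21 controls and at 6.77, 7.35 and 6.57 in day 21 IPCR. At day 450 it was at 6.31, 6.53 and 6.62 in controls and at 6.24, 7.06 and 6.81 in IPCR. The groups were apart at weaning, as for 29.9% of all genes, and overlapped in adults, and both adult groups lay near the level of the restricted weanlings. The effect went from -2.07 to 0.21, a difference of 2.29 (SE 0.33, adjusted p = 9.77e-04). Control levels changed by -2.48 (SE 0.23) with age and IPCR levels by -0.19 (SE 0.23).

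Npas2, the alternative partner of BMAL1, was at 8.91, 8.58 and 8.65 in day 21 controls, at 7.46, 7.56 and 7.27 in day 21 IPCR, at 7.21, 7.72 and 7.70 in day 450 controls and at 7.88, 8.07 and 7.74 in day 450 IPCR. Its effect went from -1.28 to 0.35 (difference 1.63, SE 0.31, adjusted p = 0.00558). The control level changed by -1.17 (SE 0.22) and the IPCR level by 0.47 (SE 0.22). Clock, the usual partner, was classed as reversed on a small scale, from -0.42 to 0.22 (difference 0.64, SE 0.14, adjusted p = 0.0135). Its day 450 effect was not called (95% interval 0.01 to 0.43, adjusted p = 0.325) and was 0.12 under quantile normalization. Its adult controls, at 8.88, 8.88 and 8.87, lay just below the lowest adult IPCR array, at 8.92, with the others at 9.20 and 9.18.

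RefSeq promoters (assembly GRCr8, 250 bases before to 50 after the start) were matched for 16 of the 18 measured clock genes. They were searched on both strands for the E-box CACGTG, the element bound by BMAL1 and its partners, and for AGGTCA, the core of the element bound by REV-ERB and ROR proteins. The E-box was in 3 of the 16 (Bhlhe40, Bhlhe41 and Tef), beside 6.42% of 33469 promoters of the same length, and AGGTCA in 3 (Bmal1, Nr1d2 and Usp2), beside 16.2%. The windows of Bmal1 (chr1:176766078-176766377, plus strand) and Tef (chr7:115206577-115206876, plus strand) are shown because the pair lost effects of opposite sign and each holds 1 of the motifs, in capitals.
Bmal1: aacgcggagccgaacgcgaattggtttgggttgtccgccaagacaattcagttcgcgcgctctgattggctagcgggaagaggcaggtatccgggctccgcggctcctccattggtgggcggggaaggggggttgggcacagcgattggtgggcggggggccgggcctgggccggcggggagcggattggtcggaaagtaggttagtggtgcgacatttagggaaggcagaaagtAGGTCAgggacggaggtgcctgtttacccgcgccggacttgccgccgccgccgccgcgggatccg
Tef: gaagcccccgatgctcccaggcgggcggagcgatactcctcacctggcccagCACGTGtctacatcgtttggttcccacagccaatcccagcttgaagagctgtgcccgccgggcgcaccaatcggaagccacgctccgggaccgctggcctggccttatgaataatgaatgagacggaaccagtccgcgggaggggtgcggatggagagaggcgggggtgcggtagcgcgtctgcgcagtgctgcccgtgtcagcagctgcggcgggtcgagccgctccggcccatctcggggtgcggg
A match is a description of letters in this window and not evidence of binding.

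Of the 7 measured period and cryptochrome repressors, 2 had a called difference, both negative (list median -0.38). Per3 was at 7.17, 7.82 and 7.72 in day 21 controls and 9.87, 9.47 and 10.12 in IPCR, then at 9.22, 8.96 and 8.96 in day 450 controls and 9.20, 8.76 and 9.27 in IPCR. All restricted weanlings were above all control weanlings, and the adults overlapped. The effect went from 2.24 to 0.03 (difference -2.21, SE 0.32, adjusted p = 0.00102). Controls rose by 1.47 (SE 0.23) with age, and IPCR levels changed by -0.74 (SE 0.23).

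Per1 closed from the restricted side. Its control level was 7.79 at day 21 and 7.82 at day 450, while IPCR went from 9.14 to 7.86, so the effect of 1.35 became 0.04 (difference -1.31, SE 0.19, adjusted p = 0.00119). Per2 was similar in size but missed the threshold (1.09 to 0.12, difference -0.98, SE 0.30, adjusted p = 0.0550). Cry2 (difference -0.25, 95% interval -0.60 to 0.09) and Cry1 (0.07, -0.25 to 0.40) were not called. The repressors Bhlhe40 (difference -0.38, SE 0.34) and Bhlhe41 (0.43, SE 0.23) were not called either.

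In the REV-ERB loop the paralogs differed in class. Nr1d2 was lost, from 0.66 to 0.14 (difference -0.52, SE 0.13, adjusted p = 0.0271), but that call failed on leaving out any of 6 arrays. Nr1d1, the main repressor of Bmal1, was kept, from 0.64 to 0.38 (difference -0.27, 95% interval -0.73 to 0.19). Its adult controls were at 10.62, 10.82 and 10.41 and its adult IPCR arrays at 10.96, 10.92 and 11.11, without overlap, although the day 450 effect was not called (adjusted p = 0.281). That effect was 0.27 under quantile normalization (limma unadjusted p = 0.0987). With the interquartile range as a covariate it was 0.23 (unadjusted p = 0.229). Adult arrays did not overlap for 17.7% of all genes. Nfil3, which represses the targets of DBP, went from -0.55 to 0.11 (difference 0.66, SE 0.19, adjusted p = 0.0441), a call lost on leaving out any of 8 arrays.

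Clock outputs divided. Of 5 measured, 3 had a called difference, all negative (list median -0.95). Dbp, a transcription factor driven directly by BMAL1, was at 8.41, 8.60 and 8.89 in day 21 controls, at 10.87, 10.47 and 11.12 in day 21 IPCR, at 11.60, 11.49 and 11.32 in day 450 controls and at 11.76, 11.24 and 11.73 in day 450 IPCR. The restricted weanlings lay between the control weanlings and both adult groups. Its effect went from 2.19 to 0.10 (difference -2.09, SE 0.29, adjusted p = 7.92e-04), with controls rising by 2.84 (SE 0.21) and IPCR by 0.75 (SE 0.21).

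Tef, a relative of DBP, showed the same one-sided closure: 0.82 (SE 0.12) with age in controls against 0.04 (SE 0.12) in IPCR, and a difference of -0.78 (SE 0.17, adjusted p = 0.0116). Wee1, a kinase that delays mitosis, went from 0.70 to -0.25 (difference -0.95, SE 0.25, adjusted p = 0.0333), a call lost on leaving out any of 8 arrays. Usp2, a rhythmic deubiquitinase, was not called (-0.90, SE 0.28, adjusted p = 0.0578).

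Noct, the rhythmic enzyme nocturnin, behaved otherwise. It was at 5.95, 6.85 and 6.13 in day 21 controls and 9.45 (SD 0.52, lowest 8.96) in IPCR, and at 6.24, 6.41 and 6.76 in day 450 controls and 8.82, 7.19 and 8.31 in IPCR. Every IPCR array was above every control array at both ages. The effect was 3.14 at day 21 and 1.64 at day 450 (95% interval 0.91 to 2.37), and the difference of -1.51 (SE 0.48, adjusted p = 0.0691) was not called. IPCR day 450 replicate B was the lowest of its group here. The clock output list as a whole had mean deviations from the adult control of 0.58, -0.09 and 0.51 on IPCR day 450 replicates A, B and C.

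**Figure D3:**
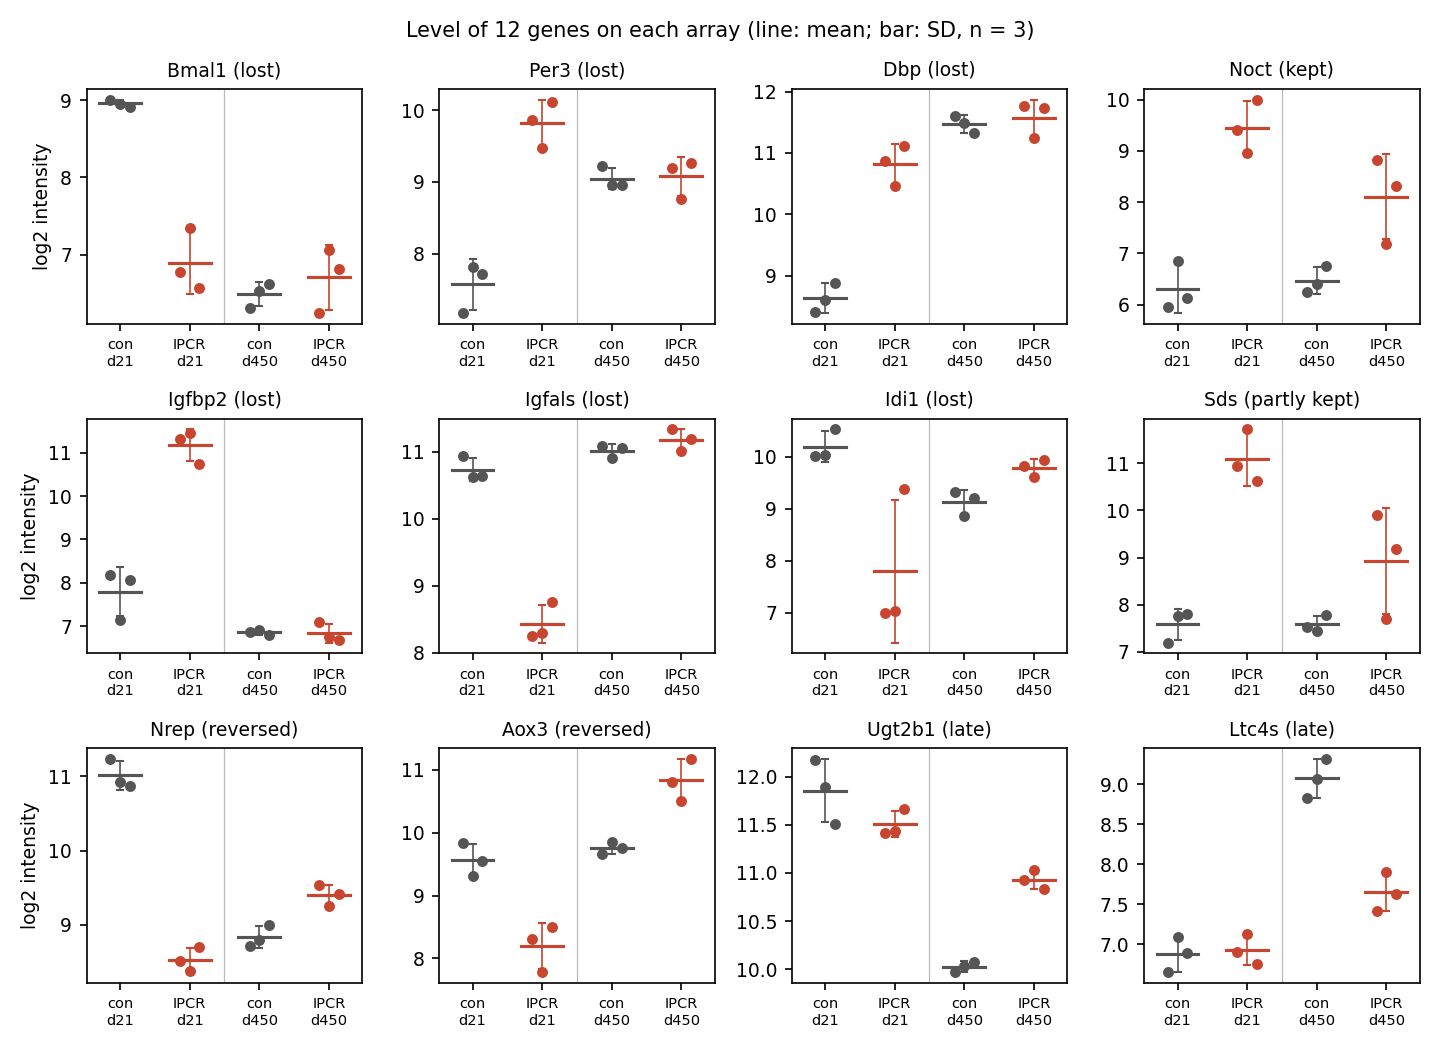
Log2 intensity of 12 genes on each of 12 arrays in control (con, grey) and IPCR (red) liver at day 21 (d21) and day 450 (d450), with a line at the mean and a bar for the SD of 3 arrays. In Bmal1, Per3 and Dbp the adult control arrays lie on the side of the restricted weanlings. In Igfbp2 and Igfals the adult IPCR arrays overlap the adult controls, in Idi1 they lie above them, and in Noct and Sds IPCR day 450 replicate B (the middle point) lies nearest to control.

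Cholesterol synthesis closed almost as a whole list. All 17 measured enzymes fell at day 21, and 15 had a called, positive difference (median 1.82), beside 951 higher and 238 lower calls among all genes. The list's median effect was -1.53 at day 21 and 0.19 at day 450, and all 15 called members were lost. The age change was larger in IPCR for all 15, with a median of 1.53 against -0.41 in control. Leaving out single arrays gave 13 to 16 called members, and quantile normalization 15. With the array spread as a covariate the median difference was 1.47, but 1 member was called, the others not passing in that fit.

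Idi1, which makes the isoprenoid building block dimethylallyl diphosphate, was at 10.02, 10.04 and 10.53 in day 21 controls, at 6.99, 7.03 and 9.39 in day 21 IPCR, at 9.32, 8.87 and 9.21 in day 450 controls and at 9.83, 9.61 and 9.93 in day 450 IPCR. Replicate C of the restricted weanlings was nearer control than replicates A and B. All adult IPCR arrays were above all adult controls, but the interval of that effect held 0 (0.66, -0.27 to 1.59). The difference was 3.05 (SE 0.62, adjusted p = 0.00827).

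Cyp51, the lanosterol demethylase, had the same arrangement, at 8.35, 8.82 and 10.85 in day 21 IPCR against 11.96, 11.78 and 12.05 in control, with adult means of 11.84 and 11.44 (difference 2.99, SE 0.58, adjusted p = 0.00647). Msmo1, a methylsterol oxidase, differed by 3.04 (SE 0.66, adjusted p = 0.0122). Tm7sf2, a sterol reductase, differed by 1.93 (SE 0.28, adjusted p = 0.00101) and Ebp, a sterol isomerase, by 1.36 (SE 0.21, adjusted p = 0.00146). Over the list, IPCR day 21 replicates A, B and C deviated from the control mean by -2.0, -1.87 and -0.67. Adult IPCR replicates deviated by 0.27, 0.25 and 0.29.

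Srebf2, the transcription factor that drives these enzymes, was lost as well, from -1.06 to 0.24 (difference 1.30, SE 0.26, adjusted p = 0.00725). It was the 1 called gene of 7 in the sterol uptake and control list.

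Fatty acid and triglyceride synthesis closed less uniformly. Of 20 measured genes 12 fell at day 21, and 8 had a called, positive difference (median 0.98). Median effects were -0.94 at day 21 and 0.05 at day 450. Acss2, which makes acetyl-CoA from acetate, was at 10.55, 10.21 and 10.34 in day 21 controls, 7.62, 7.70 and 9.02 in IPCR, 10.04, 10.27 and 10.50 in day 450 controls and 10.50, 10.62 and 10.34 in IPCR. The weanlings were apart and the adults overlapped, giving a difference of 2.48 (SE 0.37, adjusted p = 0.00146). Fads1, a fatty acid desaturase, differed by 1.66 (SE 0.35, adjusted p = 0.0106). Leaving out single arrays gave 5 to 12 called members, quantile normalization 4 and the spread covariate 0.

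In lipid breakdown, Lpl, lipoprotein lipase, which the young liver expresses and the adult liver largely does not, was at 7.87, 7.52 and 7.13 in day 21 controls against 10.86, 10.97 and 10.30 in IPCR. At day 450 it was at 7.03, 7.11 and 6.69 against 7.05, 6.99 and 7.41. The difference was -3.0 (SE 0.27, adjusted p = 3.51e-05), with the IPCR level changing by -3.56 (SE 0.19) with age. Of 17 genes of fatty acid oxidation and ketone synthesis, 2 had a positive and 1 a negative difference. Bdh1, which interconverts the ketone bodies, reversed from -0.65 to 0.30 (difference 0.94, SE 0.17, adjusted p = 0.00482). Cyp4a1, a fatty acid hydroxylase, was late, at 0.42 at day 21 and -0.61 at day 450 (difference -1.03, SE 0.23, adjusted p = 0.0154).

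Genes of the growth hormone and IGF axis had 5 positive and 1 negative called differences among 13 measured, and all 5 called at day 21 were lost. Igfbp2, an IGF-binding protein that is high in fetal and fasted liver, was at 8.18, 7.15 and 8.06 in day 21 controls and 11.32, 11.45 and 10.75 in IPCR. At day 450 it was at 6.86, 6.92 and 6.80 in controls and 7.09, 6.75 and 6.68 in IPCR. Its difference of -3.39 (SE 0.31, adjusted p = 3.51e-05) was the most negative among the called genes named here. Igfals, the stabilizing subunit of the circulating IGF1 complex, was at 10.93, 10.62 and 10.64 against 8.25, 8.29 and 8.75 at day 21, and at 11.08, 10.90 and 11.05 against 11.33, 11.01 and 11.18 at day 450. The weanlings did not overlap and the adults did. Its difference was 2.47 (SE 0.19, adjusted p = 7.10e-06), from an IPCR age change of 2.74 (SE 0.13). Irs1, an adaptor of the insulin receptor, was late, from -0.18 to 0.37 (difference 0.56, SE 0.11, adjusted p = 0.00620).

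Of the fetal genes changed at weaning, 4 were higher and 1 lower in IPCR, and all 5 were lost or reversed by day 450. Of 10 fetal and imprinted genes measured, 4 had a negative and 1 a positive called difference. Afp, the fetal serum protein alpha-fetoprotein, was at 8.89, 8.55 and 9.53 in day 21 controls, 11.76, 11.01 and 11.42 in IPCR, 7.65, 7.69 and 7.90 in day 450 controls and 7.77, 7.72 and 7.86 in IPCR (difference -2.37, SE 0.29, adjusted p = 3.11e-04). H19, an imprinted non-coding RNA, was classed as reversed. It was at 11.11, 10.74 and 11.64 against 12.68, 12.53 and 12.97 at day 21 and at 8.16, 8.48 and 8.35 against 7.97, 8.03 and 7.73 at day 450. IPCR was above control in weanlings and below it in adults, with no overlap at either age. The day 450 effect was -0.42 (95% interval -0.82 to -0.02, adjusted p = 0.319) and the difference -1.98 (SE 0.27, adjusted p = 6.25e-04).

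Antigen presentation divided between lost and kept effects. Of 15 genes, 10 fell at day 21, of which 6 were lost, with a called, positive difference, 2 were kept and 2 unresolved. With the spread covariate 0 differences of the list were called. The kept genes, picked out after their values were seen, were Tap1, a peptide transporter subunit (-0.65 to -0.51), and Psmb10, an immunoproteasome subunit (-0.34 to -0.20). The list's median effect went from -0.49 to 0.01. Psmb9, a subunit of the immunoproteasome, was at 8.20, 8.61 and 8.46 against 6.79, 7.22 and 7.37 at day 21, and at 9.08, 9.22 and 9.05 against 8.99, 9.10 and 9.25 at day 450 (difference 1.30, SE 0.22, adjusted p = 0.00253). B2m, the light chain of class I molecules, differed by 0.86 (SE 0.14, adjusted p = 0.00222). Pigr, which carries IgA across hepatocytes into bile, was at 11.87, 12.03 and 11.47 against 8.24, 9.11 and 9.42 at day 21, and at 13.62, 13.66 and 13.65 against 13.85, 13.81 and 13.79 at day 450. Both diets rose, IPCR by 4.89 (SE 0.21) and control by 1.85 (SE 0.21), a difference of 3.04 (SE 0.30, adjusted p = 5.45e-05).

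Markers of other cells moved over the same ages. In whole liver, fewer cells of a type and less RNA per cell cannot be told apart. Endothelial markers had 3 positive and 0 negative called differences of 8, with list medians of -0.45 at day 21 and 0.14 at day 450 and mean levels of 8.55 to 9.05 in IPCR against 9.05 to 9.39 in control weanlings. Adults were at 9.21 to 9.37 in IPCR and 9.05 to 9.29 in control. Kdr, a VEGF receptor, differed by 0.86 (SE 0.20, adjusted p = 0.0167) and Tek, the angiopoietin receptor, reversed from -0.34 to 0.30 (difference 0.63, SE 0.14, adjusted p = 0.0122). Of 11 macrophage markers limma called 0 differences (0 at an unadjusted p below 0.05), with mean levels of 9.14 to 9.30 in IPCR and 9.15 to 9.78 in control at day 21. Adult macrophage markers were at 9.08 to 9.44 in IPCR and 9.28 to 9.72 in control. All 11 macrophage estimates were below 0 at day 450, beside 6514 of all 14506 genes, with list medians of -0.26 at day 21 and -0.15 at day 450. The list deviated from the adult control mean by -0.39, -0.02 and -0.05 on IPCR day 450 replicates A, B and C. Adult control replicates A, B and C themselves deviated by 0.25, -0.07 and -0.18, so the groups overlapped. The part of macrophage markers in the antigen presentation result was not tested.

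Most reversed genes had fallen at weaning. Of the 205 reversed genes, 187 went from lower to higher in IPCR and 18 from higher to lower. Their median effect size at day 450 was 0.26, 12 exceeded 0.5, and 1, Pmm1, was called at day 450. The day 450 interval lay above 0 for 18.4% of genes that had fallen and 9.82% of all genes, and below 0 for 4.71% of genes that had risen and 4.95% of all genes. In both directions together, the day 450 interval excluded 0 on the side opposite to day 21 for 14.7% of genes called at day 21 and for 9.62% of all genes. The brightest of the 4 level bins held 148 of the 205, and 21.1% of all genes in that bin had a day 450 interval above 0. Under quantile normalization the opposite side held 7.35% of the called genes and 6.16% of all genes. Among named reversed genes, limma's unadjusted day 450 p then exceeded 0.05 for Clock (0.181), Bdh1 (0.115), Ctsc (0.101) and Ahr (0.0964). It also did for Ccne1 (0.0845), Slco1b2 (0.0569) and H19 (0.0503). Without IPCR day 450 replicate C, 110 genes were reversed.

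Some reversals were larger. Aox3, an aldehyde oxidase, was at 9.83, 9.31 and 9.55 in day 21 controls, 8.30, 7.78 and 8.50 in IPCR, 9.66, 9.86 and 9.75 in day 450 controls and 10.81, 10.51 and 11.18 in IPCR. The groups did not overlap at either age and swapped order. The effect went from -1.37 to 1.07 (95% interval 0.62 to 1.53), a difference of 2.44 (SE 0.30, adjusted p = 3.45e-04). Control levels changed by 0.20 (SE 0.21) with age and IPCR levels by 2.64 (SE 0.21).

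Nrep, a gene named for its part in neuronal regeneration, was at 11.24, 10.93 and 10.87 against 8.51, 8.37 and 8.70 at day 21, and at 8.71, 8.80 and 9.0 against 9.53, 9.25 and 9.41 at day 450. Its difference of 3.05 (SE 0.16, adjusted p = 7.06e-08) combined a control change of -2.18 (SE 0.11) with an IPCR change of 0.87 (SE 0.11). Echdc1, an enzyme that removes ethylmalonyl-CoA, went from -0.75 to 0.79 (difference 1.54, SE 0.20, adjusted p = 5.25e-04). Nabp1, a single-stranded DNA-binding protein, went from -0.86 to 0.75 (difference 1.61, SE 0.30, adjusted p = 0.00545). In the opposite direction Pmm1, a phosphomannomutase, was at 7.84, 7.98 and 8.08 against 8.17, 8.49 and 8.17 at day 21, and at 8.15, 8.26 and 8.20 against 7.57, 7.52 and 7.66 at day 450. Its effect went from 0.31 to -0.62, and both were called (adjusted p = 0.0410 and 0.0255).

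Bile acid genes supplied 3 of the reversed genes among 6 called, all positive, of 17 measured. Beside this, 205 of all 14506 genes were reversed and 8.20% called. The list was bright (median level 11.09), and the brightest level bin held 148 of the 205 reversed genes. Cyp8b1, the hydroxylase that sets the share of cholic acid, was at 10.96, 11.91 and 11.76 against a mean of 10.37 (SD 0.64, lowest 9.72) at day 21, and at 11.29, 11.05 and 11.88 against 12.66, 12.06 and 12.38 at day 450. The weanlings overlapped and the adults did not. The effect went from -1.17 to 0.96 (difference 2.13, SE 0.43, adjusted p = 0.00861). Slco1b2, an uptake transporter of the sinusoidal membrane, went from -1.02 to 0.29 (difference 1.31, SE 0.17, adjusted p = 4.04e-04), and Nr1h4, the bile acid receptor FXR, from -0.77 to 0.39 (difference 1.16, SE 0.18, adjusted p = 0.00170). With the spread covariate the differences of Cyp8b1 and Nr1h4 were not called (limma adjusted p = 0.174 and 0.0592). That of Slco1b2 was called (adjusted p = 0.0215), but its unadjusted day 450 p was then 0.169. Cyp7a1, the rate-limiting enzyme, was picked out after its values were seen: its effect was 0.60 at day 21 and 1.28 at day 450 (95% interval 0.74 to 1.82), and the difference of 0.68 (SE 0.36, adjusted p = 0.254) was not called.

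Detoxification genes went both ways. Of 23 xenobiotic genes, 6 had a positive and 2 a negative called difference. Ahr, the dioxin receptor, reversed from -0.77 to 0.27 (difference 1.03, SE 0.18, adjusted p = 0.00300), with age changes of -1.90 (SE 0.12) in control and -0.86 (SE 0.12) in IPCR. Cyp2b3, a cytochrome P450, was lost, from -1.42 to 0.19 (difference 1.6, SE 0.21, adjusted p = 6.01e-04). The largest positive differences overall included Sult2a1, a steroid sulfotransferase whose close relatives may share its probes. It was at 10.79, 10.62 and 9.69 against 6.35, 6.87 and 8.65 at day 21, and at 10.66, 9.35 and 10.92 against 11.23, 10.73 and 11.10 at day 450 (difference 3.79, SE 0.79, adjusted p = 0.00985). Akr1b7, an aldo-keto reductase, instead lost its control level, from 9.72 to 5.93, while IPCR went from 6.86 to 6.15 (difference 3.08, SE 0.64, adjusted p = 0.00943).

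Part of amino acid breakdown persisted. All 15 measured genes had a day 450 estimate above 0, beside 7992 of all 14506 (55.1%), with a median effect of 0.26 at day 21 and 0.41 at day 450. Such a count was not particular to this list. It also held for all 28 oxidative phosphorylation, 12 heat shock and 10 periportal genes. The list was bright (median level 10.65), and the brightest level bin had a median day 450 effect of 0.11. Of the 15 genes, 5 rose at day 21, of which 3 were kept, 1 partly kept and 1 lost. By limma 0 were called at day 450 (10 at an unadjusted p below 0.05), and 1 had a positive and 2 a negative called difference. The adult result differed between rats: mean deviations from control were 0.70, 0.09 and 0.72 on IPCR day 450 replicates A, B and C, against 0.59, 0.81 and 0.58 on the day 21 replicates. Under quantile normalization the day 450 median was 0.32 with 14 of 15 above 0.

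Gpt, alanine aminotransferase, was at 8.70, 8.71 and 8.48 against 9.53, 9.59 and 9.36 at day 21, and at 9.01, 9.35 and 8.84 against 10.33, 9.66 and 10.58 at day 450, without overlap at either age. Its effects were 0.86 and 1.12 (difference 0.26, 95% interval -0.39 to 0.91). Tat, tyrosine aminotransferase, was at 11.77, 12.01 and 11.42 against 13.20, 13.27 and 13.23, then at 11.71, 11.91 and 11.92 against 12.96, 12.37 and 12.46, with effects of 1.5 and 0.75 (difference -0.75, 95% interval -1.40 to -0.10, adjusted p = 0.142). Both were classed as kept, although neither day 450 effect was called (adjusted p = 0.0759 and 0.174).

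Sds, serine dehydratase, was partly kept. It was at 7.19, 7.75 and 7.79 against 10.95, 11.73 and 10.62 at day 21, and at 7.53, 7.43 and 7.78 against 9.90, 7.70 and 9.18 at day 450. Adult replicate B lay within the control range, and replicates A and C were above it. The effect went from 3.52 to 1.34 (difference -2.18, SE 0.57, adjusted p = 0.0278), a call lost on leaving out any of 4 arrays. Got1, aspartate aminotransferase, was lost, from 2.18 to 0.50 (difference -1.68, SE 0.35, adjusted p = 0.00969), with adult IPCR at 11.02, 9.88 and 10.76.

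Of 7 urea cycle genes, 4 rose at day 21, of which 3 were lost, with called, negative differences, and 1 was kept. All 7 day 450 estimates were above 0, with medians of 0.44 at day 21 and 0.28 at day 450. The list was bright (median level 11.39), and its day 450 median was 0.17 under quantile normalization. Asl, argininosuccinate lyase, went from 1.15 to 0.12 (difference -1.03, SE 0.20, adjusted p = 0.00759), and Slc25a15, the mitochondrial ornithine carrier, from 0.71 to 0.18 (difference -0.53, SE 0.13, adjusted p = 0.0225; lost on leaving out any of 3 arrays). Adult IPCR replicates deviated by 0.38, 0.01 and 0.33 over the list, so replicate B again lay at the control level.

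Several single genes with large differences belong to none of these groups. Arrdc3, an arrestin-domain protein, was at 12.17, 11.48 and 11.72 against 9.31, 9.16 and 8.75 at day 21, and at 11.57, 11.41 and 11.62 against 11.52, 11.47 and 11.75 at day 450, so that a full separation gave way to overlap (difference 2.77, SE 0.24, adjusted p = 3.24e-05). Hdc, which makes histamine, went the other way, at 6.45, 6.51 and 6.49 against 7.93, 8.11 and 7.93 at day 21, and at 7.52, 7.31 and 7.27 against 7.07, 7.37 and 7.2 at day 450 (difference -1.66, SE 0.16, adjusted p = 3.71e-05). Its age change was 0.88 (SE 0.11) in control and -0.78 (SE 0.11) in IPCR. Upp2, a uridine phosphorylase, went from 2.13 to 0.03 (difference -2.10, SE 0.61, adjusted p = 0.0456), a call lost on leaving out any of 9 arrays.

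Effects on the same side at both ages were about as frequent as their background. The day 450 interval lay on the same side as day 21 for 4.94% of genes called at day 21 and for 5.15% of all genes. The directions differed. That interval lay above 0 for 13.1% of genes that had risen, beside 9.82% of all genes. It lay below 0 for 1.87% of genes that had fallen, beside 4.95% of all genes. Level mattered to these shares: in the brightest level bin the interval lay above 0 for 21.1% of genes and below 0 for 1.46%. Risen and fallen genes were not compared with genes of matched level, so neither an excess nor a depletion is shown. Among named genes Zfp189, a zinc finger gene, had effects of 0.76 and 0.79 (difference 0.04, SE 0.25), and Wfdc2, a protease inhibitor homolog, of 0.90 and 0.77 (difference -0.13, SE 0.34). Egr1, an immediate early transcription factor, was the named gene kept below control. It was at 10.29, 9.51 and 9.42 against 8.12, 8.06 and 7.93 at day 21 and at 8.12, 8.19 and 8.89 against 7.61, 7.77 and 7.70 at day 450, with effects of -1.70 and -0.71 (difference 1.00, SE 0.30, adjusted p = 0.0523). The partly kept genes besides Sds included Slc25a25, a mitochondrial ATP carrier (1.80 to 0.72), Coq10b, a coenzyme Q-binding protein (1.61 to 0.42), Pla2g12a, a phospholipase (0.96 to 0.27), and Osgin1, an oxidative stress-induced gene (-1.34 to -0.42). The difference was lost for Slc25a25 on leaving out any of 10 arrays and for Osgin1 without IPCR day 21 replicate A.

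Late genes numbered 348, with a called difference but no call at weaning, and 4 of them were called at day 450. The name refers to the missing call and not to the absence of an effect at day 21. By their estimates, 233 went from lower to higher in IPCR and 112 from higher to lower, a swap of sign that selecting on the difference favours. Late genes numbered 141 under quantile normalization, 76 without IPCR day 450 replicate C and 4 with the spread covariate. Ugt2b1, a glucuronosyltransferase of a family that may share probes, was at 12.17, 11.89 and 11.51 against 11.42, 11.44 and 11.66 at day 21, and at 9.97, 10.03 and 10.08 against 10.93, 11.03 and 10.83 at day 450. The weanlings overlapped and the adults were fully apart. The effect went from -0.35 to 0.90 (day 450 adjusted p = 0.0255), a difference of 1.25 (SE 0.19, adjusted p = 0.00150). The age change was -1.83 (SE 0.13) in control and -0.58 (SE 0.13) in IPCR.

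Ltc4s, leukotriene C4 synthase, rose with age mainly in controls. It was at 6.65, 7.09 and 6.89 against 6.90, 7.13 and 6.75 at day 21, and at 8.83, 9.07 and 9.32 against 7.42, 7.90 and 7.63 at day 450. The day 450 effect was -1.42 (adjusted p = 0.0317) and the difference -1.47 (SE 0.31, adjusted p = 0.0113). Cxcl14, a chemokine, had effects of 0.28 and 0.90 (difference 0.61, SE 0.17, adjusted p = 0.0422), lost on leaving out any of 10 arrays. Med14, a subunit of the Mediator complex, had effects of 0.07 and 0.71 (difference 0.63, SE 0.15, adjusted p = 0.0184), but its levels of 4.97 to 5.86 lay below the lower quartile of every array. That call was lost without control day 21 replicate A (adjusted p = 0.050).

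The late genes Ccdc80, Med13, Rexo4 and Nr3c1 were not called at day 450 (limma adjusted p = 0.0504, 0.0502, 0.0875 and 0.0980). With the spread covariate their differences were not called either. Ccdc80, an extracellular matrix protein, was at 9.03, 9.13 and 9.24 in adult controls against 9.55, 9.62 and 9.6 in adult IPCR (difference 0.64, SE 0.11, adjusted p = 0.00444). Med13, of the Mediator kinase module, differed by 0.59 (SE 0.11, adjusted p = 0.00480) and Rexo4, an exonuclease-domain protein, by 0.97 (SE 0.18, adjusted p = 0.00545). Nr3c1, the glucocorticoid receptor, had effects of -0.25 and 0.46 (difference 0.71, SE 0.15, adjusted p = 0.00943), and Hsd11b1, which regenerates active glucocorticoid, reversed from -0.45 to 0.32 (difference 0.77, SE 0.16, adjusted p = 0.0118). These were the 2 called of 9 genes in the glucocorticoid list.

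Genes of glucose use and glycogen had 4 called differences of 8, 3 positive and 1 negative, beside 8.20% of all genes, with a list median difference of 0.77. Gbe1, the glycogen branching enzyme, differed by 1.59 (SE 0.25, adjusted p = 0.00179) and Gys2, glycogen synthase, by -0.90 (SE 0.14, adjusted p = 0.00195).

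Other lists had 0 or 1 called difference each, beside 8.20% of all genes, and 1 call among 11 to 14 genes is near that share. Of 28 oxidative phosphorylation subunits 0 had a called difference by limma (3 at an unadjusted p below 0.05), and medians were 0.11 and 0.12. All 28 day 450 estimates were above 0, but 19 under quantile normalization. Cell cycle genes had 1 call of 19, Ccne1, cyclin E (0.63 to -0.28, difference -0.91, SE 0.17, adjusted p = 0.00604). Glucose production had 1 of 11, Pc, pyruvate carboxylase (difference 0.62, SE 0.13, adjusted p = 0.0118). By limma, male-biased genes had 0 calls of 6 and immediate early genes 0 of 10, each with 2 at an unadjusted p below 0.05. Interferon, acute phase, heat shock and unfolded protein lists had 1 positive call each, of 14, 11, 12 and 14 genes. At day 450, 13 of 14 interferon and 9 of 11 acute phase estimates were below 0, beside 6514 of all 14506 genes. The interferon list deviated from the adult control by -0.51, 0.09 and 0.10 on IPCR day 450 replicates A, B and C. Its mean thus lay below control on replicate A only. All 12 heat shock and 12 of 14 unfolded protein estimates were above 0, beside 55.1% of all genes.

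**Figure D4:**
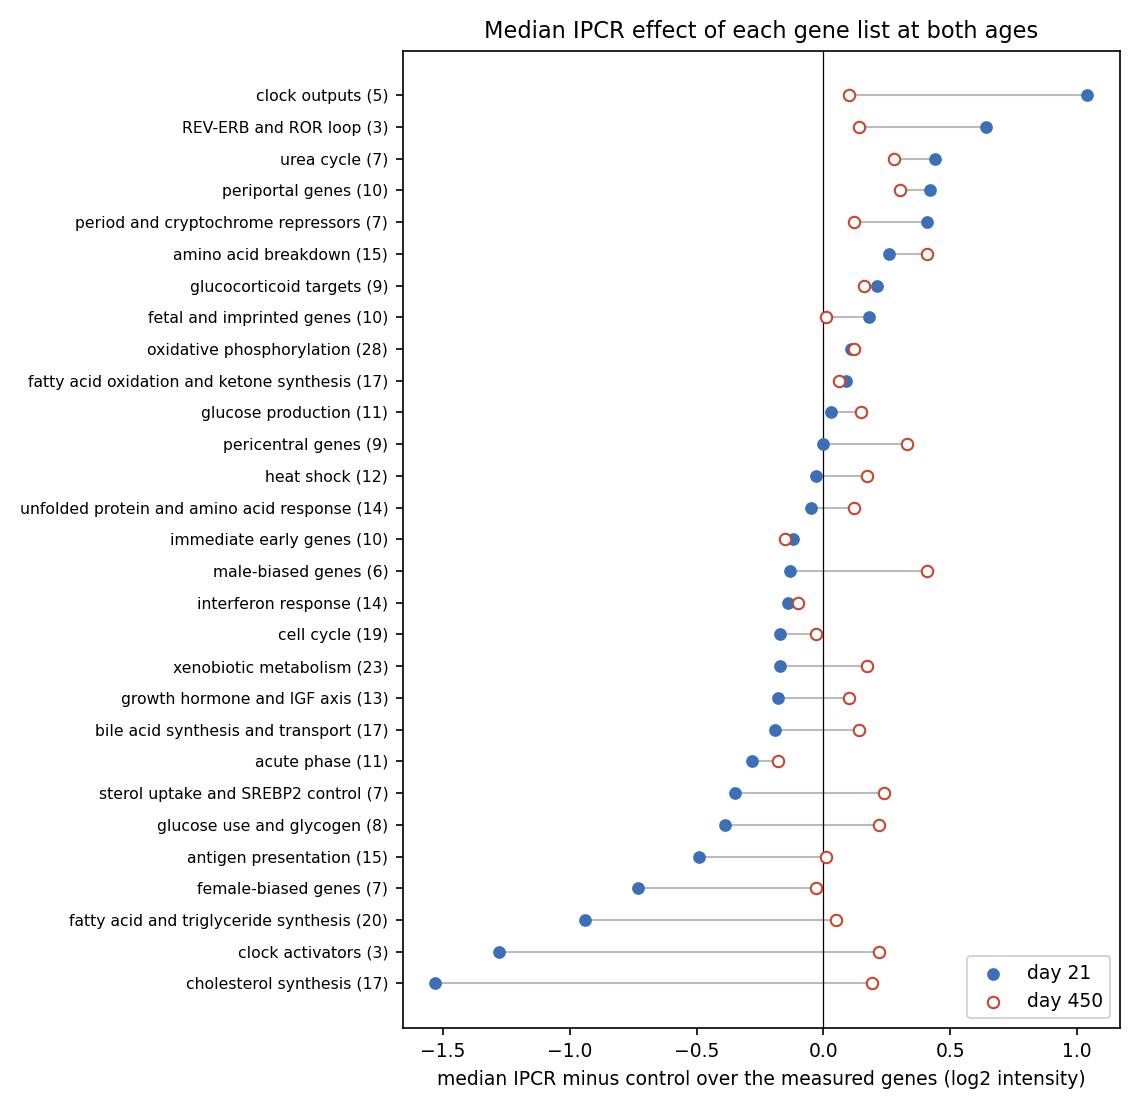
Median IPCR minus control (log2 intensity) over the measured genes of each clock and pathway list at day 21 (filled) and day 450 (open), with the number of genes in brackets and lists ordered by the day 21 median. Cholesterol synthesis, clock activators and fatty acid synthesis span the longest lines, ending at 0.19, 0.22 and 0.05, while the urea cycle (0.44 and 0.28) and amino acid breakdown (0.26 and 0.41) stay on the same side.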

How the data were processed

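Affymetrix Rat Gene 1.0 arrays measured liver RNA of 15 rats. The deposited values are log2 intensities, made by the authors with robust multi-array average (RMA) in Affymetrix Expression Console, per the submitters' processing notes, which state no version. The table has 29215 probe sets and 0 missing values. Of these, 15310 carry 1 gene symbol in the platform annotation, 323 several and 13582 none. For 527 genes with several probe sets the one with the highest mean was kept, leaving 14506 genes, 14481 of them found in RefSeq (GRCr8). Near-identical families may share probes.

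The model had 1 mean per group over all 15 arrays (limma 3.58.1, R 4.3.3, lmFit, eBayes without trend or robust options, 10 residual degrees of freedom) and was tested on simulated data. With 200 simulated changed genes, 34.5% were found at a true difference of 0.5 and 91% at 1. Of the calls in simulated data, 6.1% to 8.08% were false. These rates describe the simulated data only. Whether they apply to the real arrays, whose spread of levels moved with the groups, was not tested. The median SE of a difference was 0.14. SE is limma's and SD is over 3 arrays. The number of arrays limits precision.

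Members and gene lists were chosen with earlier results of these data known. Named by rule were the 10 largest differences each way, the 5 largest day 450 effects of the reversed, partly kept and kept classes, the 5 late genes with the smallest p, all clock genes, 2 called members of each other list or else its member with the smallest p, and all genes called at day 450. Symbols of locus numbers and chemoreceptors were not named. Alternatives were quantile normalization, centred arrays, genes above the median level, the replicate block, only the 4 groups, mean probe sets, trend with robust moderation, the interquartile range as a covariate, adjusted p below 0.10 and leaving out each array.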

Additional observations from a re-analysis of the deposited data

Results flagged for a closer look

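The IPCR effect at day 450 differed from that at day 21, by limma's test of the difference itself at an adjusted p below 0.05, for 1189 genes. Of the named genes, 77 were among them. Values are the difference of effects in log2 intensity. Effects present at day 21 and lost, with a higher value at day 450 than at day 21, were those of Sult2a1 (3.79), Akr1b7 (3.08), Idi1 (3.05), Msmo1 (3.04), Pigr (3.04), Cyp51 (2.99), Arrdc3 (2.77), Acss2 (2.48), Igfals (2.47), Bmal1 (2.29), Tm7sf2 (1.93) and Fads1 (1.66). The same held for Npas2 (1.63), Cyp2b3 (1.6), Gbe1 (1.59), Ebp (1.36), Psmb9 (1.30), Srebf2 (1.30), Cyp1a2 (0.93), Crp (0.92), Kdr (0.86), B2m (0.86), Pdgfrb (0.86) and Rig1 (0.79). The same held for Nfil3 (0.66), Rhbg (0.66), Dnajc3 (0.62), Pc (0.62) and Bag3 (0.57). Effects present at day 21 and lost, with a lower value at day 450 than at day 21, were those of Igfbp2 (-3.39), Lpl (-3.0), Afp (-2.37), Per3 (-2.21), Upp2 (-2.10), Dbp (-2.09), Got1 (-1.68), Hdc (-1.66), Per1 (-1.31), Asl (-1.03), Wee1 (-0.95) and Gys2 (-0.90). The same held for Krt19 (-0.88), Tef (-0.78), Slc25a15 (-0.53) and Nr1d2 (-0.52). Effects that reversed, with a higher value at day 450 than at day 21, were those of Nrep (3.05), Aox3 (2.44), Cyp8b1 (2.13), Nabp1 (1.61), Echdc1 (1.54), Slco1b2 (1.31), Nr1h4 (1.16), Ctsc (1.09), Ahr (1.03), Bdh1 (0.94), Hsd11b1 (0.77) and Clock (0.64). The same held for Tek (0.63). Effects that reversed, with a lower value at day 450 than at day 21, were those of H19 (-1.98), Pmm1 (-0.93) and Ccne1 (-0.91). Effects partly kept, with a higher value at day 450 than at day 21, were those of Osgin1 (0.91). Effects partly kept, with a lower value at day 450 than at day 21, were those of Sds (-2.18), Coq10b (-1.19), Slc25a25 (-1.08) and Pla2g12a (-0.69). Effects not called at day 21, with a higher value at day 450 than at day 21, were those of Ugt2b1 (1.25), Lrat (0.98), Rexo4 (0.97), Nr3c1 (0.71), Ccdc80 (0.64), Med14 (0.63), Cxcl14 (0.61), Med13 (0.59) and Irs1 (0.56). Effects not called at day 21, with a lower value at day 450 than at day 21, were those of Ltc4s (-1.47) and Cyp4a1 (-1.03).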

How the results depend on the processing

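In 0 of the alternatives did a called gene take the other sign, and 26 of the 77 named genes called remained called in every alternative that tested them (49 were not called with the interquartile range as a covariate): Afp, Ahr, Aox3, Arrdc3, Bmal1, Coq10b, Ctsc, Cyp2b3, Dbp, Echdc1, Gys2, H19, Hdc, Igfals, Igfbp2, Lpl, Npas2, Nrep, Per1, Per3, Pigr, Pmm1, Slco1b2, Tef, Tm7sf2 and Ugt2b1. The difference was called for 1189 genes, and for 790 under quantile normalization (65.6% higher, beside 80.0%), 1466 after centring (89.8% higher), 1435 among genes above the median level, 2009 at an adjusted p below 0.10 and 112 with the interquartile range as a covariate. Reversed genes numbered 113 and late genes 141 under quantile normalization. With the covariate 85 were lost, 23 reversed, 0 partly kept, 33 kept and 4 late. At an adjusted p below 0.10, 1012 were lost and 699 late. Genes called at day 450 numbered 9 with only the 4 groups, 15 among genes above the median level, 15 with trend and robust moderation, 69 at an adjusted p below 0.10 and 0 with the covariate (918 at an unadjusted p below 0.05).

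Leaving out 1 array at a time gave 606 to 1546 called differences, 755 to 1500 genes changed at day 21 and 0 to 80 at day 450, the 80 without IPCR day 450 replicate B. It gave 339 to 803 lost, 105 to 280 reversed, 2 to 10 partly kept, 31 to 98 kept and 76 to 553 late genes. Replicate letters did not pair the arrays: 18 same-letter correlations of deviations ran from -0.26 to 0.13. With the replicate block 1091 differences were called by limma and 0 genes at day 450 (2085 at an unadjusted p below 0.05). The causes were not tested. With 3 arrays a group, effects near the median SE of 0.10 are not resolved, unresolved genes are not shown to have kept or lost their effect, and levels near the lower quartile may be background.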

Other observations

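Beside the 8.20% of all genes with a called difference, zonal and sex-biased lists held the following. Of 9 pericentral genes 2 had a positive difference: Cyp1a2, a cytochrome P450, at 0.93 (SE 0.24, limma adjusted p = 0.0272), and Rhbg, an ammonium transporter, at 0.66 (SE 0.18, adjusted p = 0.0350). The call was lost for Cyp1a2 on leaving out any of 5 arrays and for Rhbg on leaving out any of 8, IPCR day 450 replicate C among them in both cases. Their age changes were -1.68 and -1.37 in control and -0.74 and -0.71 in IPCR. Of 10 periportal genes 1 had a positive and 2 a negative difference. Cyp2c11, a male-specific P450 that appears at puberty, rose with age by 6.11 (SE 0.39) in control and by 7.68 (SE 0.39) in IPCR liver, and its difference of 1.57 (SE 0.55, adjusted p = 0.0901) was not called. Of 7 female-biased genes 2, Sult2a1 and Akr1b7, had a positive difference.

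Of 10 stellate cell markers 2 had a positive difference, and the list medians were -0.03 at day 21 and 0.06 at day 450. Pdgfrb, a receptor of stellate cells, went from -0.85 to 0.01 (difference 0.86, SE 0.16, adjusted p = 0.00480), with a control age change of -0.94 and an IPCR age change of -0.08. Of 6 bile duct markers 1 had a called difference. This was Krt19, a keratin, which went from 0.61 to -0.27 (difference -0.88, SE 0.25, adjusted p = 0.0392), a call lost on leaving out any of 10 arrays. Of the T and NK cell, B cell, neutrophil, red cell precursor, adipocyte and pancreatic acinar lists, limma called 0 genes. At an unadjusted p below 0.05 there were 0, 1, 0, 2, 1 and 0 respectively.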
